A study of Arabidopsis thaliana with 6 samples.

Results

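The translation initiation and elongation factors of Arabidopsis were compared between sperm cells (SCs) and vegetative nuclei (VN), which were sorted from mature pollen. The members were the genes whose description in the deposited gene table holds "translation initiation factor", "eukaryotic initiation factor", "translation elongation factor" or "translation initiation", in any case, which gave 80 of 27655 genes. The rule uses no measured value. Of the 80 genes, 59 were placed with the cytosolic machinery by their names and descriptions, 12 with plastid or mitochondrial translation, and 9 carry a description that does not place them in a known factor.

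RNA was measured in 6 libraries, 3 from SCs and 3 from VN, made with Smart-seq2, a full-length cDNA method for small inputs, from material purified by fluorescence-activated sorting. Both groups came from one marker line, labelled WT, that carries MGH3p::MGH3-GFP, a tagged sperm histone H3, and ACT11p::H2B-mRFP, a histone H2B fusion driven by the promoter of a pollen actin. All plants were grown for 8 weeks with 8 h of light and then moved to 16 h of light to flower. The study calls the libraries of a group biological replicates, while the labels do not say whether they came from separate plants or sorts, so p-values measure the spread between these libraries. SC libraries were made from whole cells and VN libraries from nuclei, so cell type and the part of the cell sampled cannot be told apart in any comparison given here.

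A eukaryotic ribosome starts translation in ordered steps, each served by its own factors. The small subunit carries eIF1 and the multi-subunit eIF3, and receives the initiator tRNA from eIF2, a GTPase recharged by eIF2B. The mRNA is brought by the cap-binding eIF4E, the scaffold eIF4G, the helicase eIF4A and its partner eIF4B. Start codon recognition is followed by GTP hydrolysis with eIF5, subunit joining with eIF5B, and elongation with eEF1A, its exchange factor EF1B, and eEF2. Mature pollen is known for storing transcripts that are translated after germination, and sperm cells are transported in the vegetative cell without growing themselves.

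Levels are given in TPM, transcripts per 1000000 after correction for length, so that levels of different genes can be set side by side within a library. TPM is a share of a library and keeps no depth, so less RNA of a gene per cell and more RNA of other genes cannot be told apart. Between 12418 and 15112 genes per SC library and between 10202 and 15289 genes per VN library were above 0 TPM. The 10 sperm markers summed to 21663 to 25449 TPM in SCs and to 299, 322 and 854 TPM in VN replicates 1, 2 and 3, while the 16 vegetative cell markers summed to 542 to 606 TPM in SCs and 17184 to 18663 TPM in VN. MGH3 and ACT11, whose promoters drove the sorted fluorescence, are on these lists. Of 5 tapetum markers none was tested and their sum stayed at or under 1.17 TPM, but 8 green tissue markers summed to 344 to 520 TPM in SCs against 2.43 to 8.49 TPM in VN. For that green tissue list, 2 genes passed the filter on low values, both were higher in SCs, and 2 to 5 genes were at 0 in an SC library and 5 to 7 in a VN library. The part of this difference in the results for the factors was not tested.

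Of the 80 factors, 54 reached 1 TPM in 2 or more libraries and were tested together with every other gene that did so. DE (differentially expressed) stands for an adjusted p below 0.01 together with a log2 fold change beyond 1 or -1. The log2 fold change is SC minus VN on log2(TPM + 1), a scale that understates the change of low genes. Of the 54, 41 were DE (75.9%), against 64.9% of all 10955 genes tested. SCs were higher for 25 of the 54 (46.3%), against 29.2% of all genes tested. VN was higher for 16 of the 54 (29.6%), against 35.6%, and 13 were not called. The median log2 fold change was 0.87 over the 54 factors and -0.55 over all genes tested, so that a typical gene lay below 0 on this scale. The libraries of the 2 cell types did not overlap for 43 of the 54 (79.6%), against 77.3% of all genes tested. The 26 untested factors stayed at or under 1.84 TPM in every library, and 1 of them, AT5G57650, was listed at 0 throughout.

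**Figure D1:**
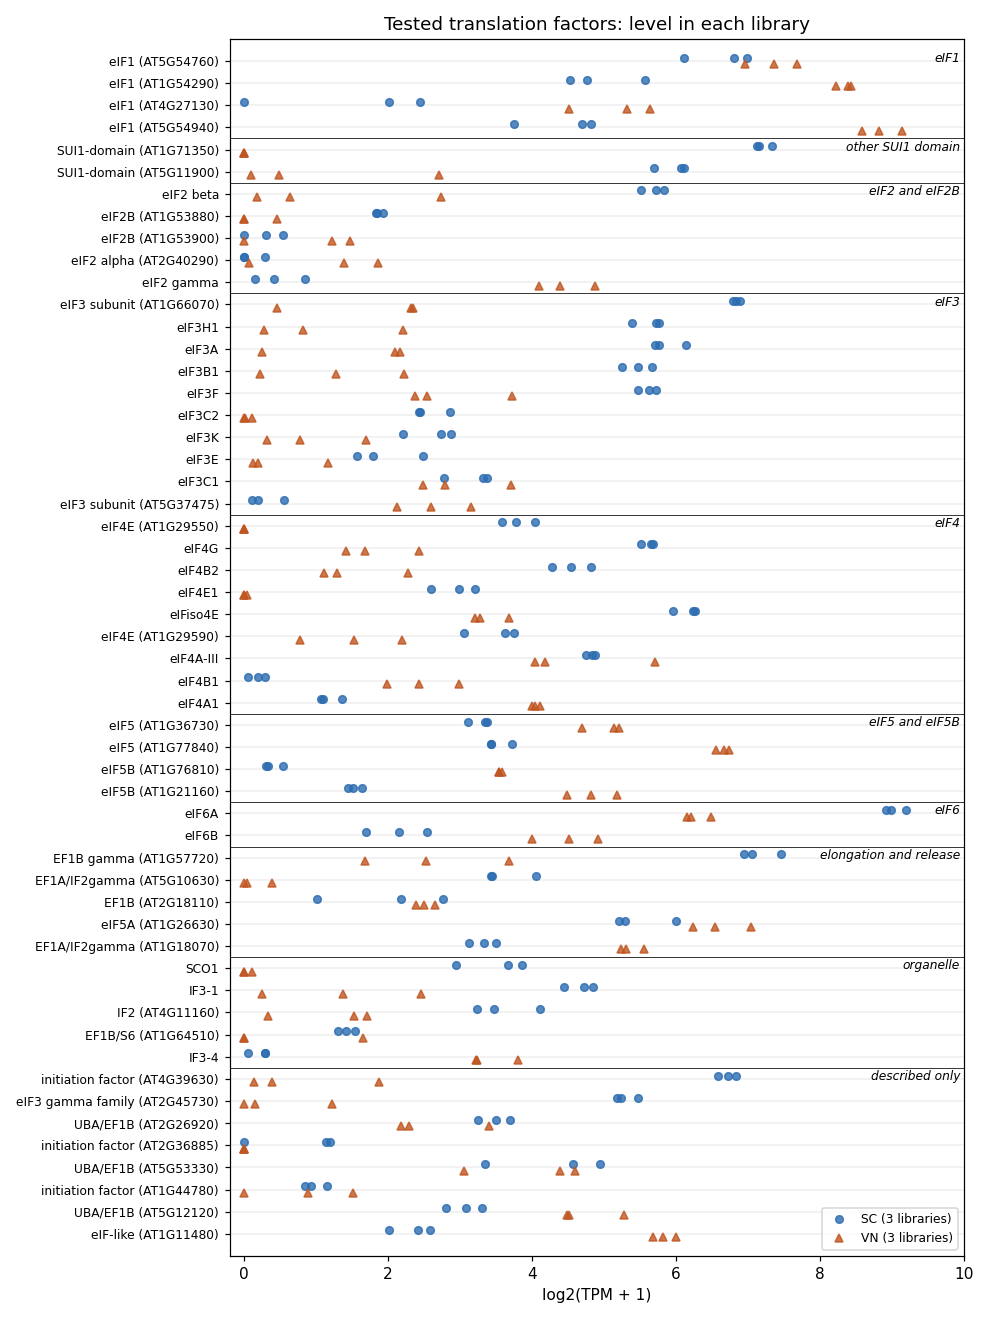
Level of each of the 54 tested translation factors as log2(TPM + 1) in the 3 SC libraries (circles) and the 3 VN libraries (triangles), grouped by factor. The 4 tested eIF5 and eIF5B genes and 3 of the 4 eIF1 genes lie to the right in VN. Most eIF3 and eIF4 genes lie to the right in SCs. Of the 54, 43 (79.6%) show no overlap between the cell types, against 77.3% of all genes tested.

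The summed level of all factors overlapped between the cell types as deposited, and moved with the scaling. In TPM they summed to 2148, 1924 and 1799 in the SC libraries and to 1819, 1631 and 1536 in the VN libraries, which is 0.196% ± 0.0177 (SD, n = 3) of the SC libraries and 0.166% ± 0.0144 (SD, n = 3) of the VN libraries. The ranges overlapped (exact permutation test, two-sided, p = 0.2, where 0.1 is the smallest p that 3 against 3 libraries allow). Without eIF6A, the most abundant member in SCs, the members took 0.131% to 0.156% of an SC library and 0.146% to 0.173% of a VN library. With the 10 highest genes of each library removed and the rest rescaled, they took 0.400% to 0.423% of an SC library and 0.190% to 0.215% of a VN library, with no overlap.

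The make-up of that sum differed between the cell types by factor group. The 4 eIF1 genes summed to 204, 165 and 103 TPM in SCs and to 1151, 970.0 and 853 TPM in VN. The eIF3 genes went the other way, with 332, 335 and 335 TPM in SCs against 32.1, 24.5 and 34.7 TPM in VN. Sums of eIF4 genes were 188 to 212 TPM in SCs and 54.0 to 85.3 TPM in VN, and those of eIF5 and eIF5B genes were 19.5 to 23.7 TPM in SCs and 164 to 178 TPM in VN. For none of the 10 groups did SC and VN libraries overlap (p = 0.1 for all 10, exact permutation test), although those of the elongation and release group came close, at 189 to 262 TPM in SCs and 134 to 186 TPM in VN. Most single genes did not overlap either, at 77.3% of all genes tested.

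**Figure D2:**
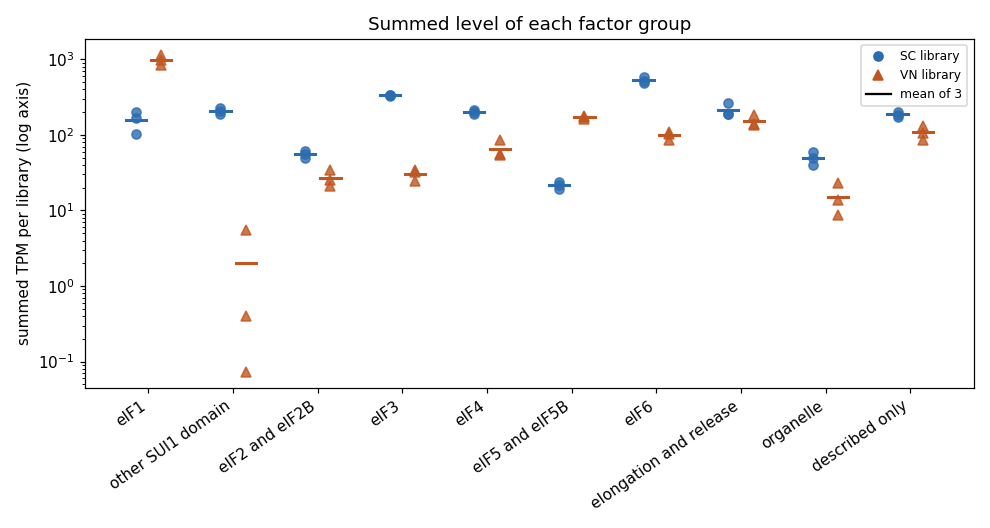
Summed TPM of each factor group (log axis) in the 3 SC libraries (circles) and the 3 VN libraries (triangles), with the mean of 3 as a bar. The eIF1 sum is 157 TPM in SCs and 991 TPM in VN on average, the eIF3 sum 334 and 30.5 TPM.

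eIF1, which guards start codon selection on the small subunit, was the most abundant factor of VN. The family has 4 genes, all described as SUI1 family proteins. VN was higher for 3 (75.0%, against 35.6% of all genes tested) and SCs for none. AT5G54940 stood at 27.3, 24.8 and 12.4 TPM in SCs and at 562, 450.2 and 384 TPM in VN, so that its lowest VN library was far above its highest SC library. It was the highest of all 80 members in VN (log2 fold change -4.43, SE 0.32, adjusted p = 5.28e-06). AT1G54290, the next in VN, stood at 46.4, 26.1 and 22.1 TPM in SCs and 345, 334 and 297 TPM in VN (log2 fold change -3.40, SE 0.28, adjusted p = 1.28e-05). AT4G27130 was lower in both, at 4.42, 3.05 and 0 TPM in SCs and 38.9, 22.0 and 49.1 TPM in VN (log2 fold change -3.68, SE 0.64, adjusted p = 9.13e-04, and 0.0156 with a pseudocount of 0.1).

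The fourth copy behaved differently from the other eIF1 genes. AT5G54760 stood at 126, 111 and 68.4 TPM in SCs and at 205, 163 and 123 TPM in VN, and the ranges overlapped. It was not called (log2 fold change -0.70, SE 0.29, adjusted p = 0.0567), and its difference turned to 0.14 after quantile normalization and to 0.10 with the 10 highest genes removed. Because the other copies were so much lower in SCs, AT5G54760 supplied 61.7% to 67.2% of the family's TPM there and 14.4% to 17.8% in VN, where AT5G54940 supplied 45.0% to 48.9%. These shares did not overlap (p = 0.1 by an exact permutation test, adjusted p = 0.119 over the 19 paralogue shares compared).

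The copies can be told apart by their reads. None of the 31-base words of an eIF1 transcript occurs in another eIF1 transcript, and the coding sequences are 72.3% to 90.9% identical in pairs. The first 90 bases of the coding sequence of the 3 copies of equal length, 342 bases, are shown because their levels differ between the cell types while the sequences are close. Capitals mark the 18 positions at which the 3 copies are not all alike, of 63 in the whole coding sequence, and the region is the span of the coding sequence in TAIR10.1 with its introns.
AT1G54290, chr1:20268710-20269390, minus strand: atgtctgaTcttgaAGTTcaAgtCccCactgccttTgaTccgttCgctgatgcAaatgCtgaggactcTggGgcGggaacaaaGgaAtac
AT4G27130, chr4:13604814-13605525, minus strand: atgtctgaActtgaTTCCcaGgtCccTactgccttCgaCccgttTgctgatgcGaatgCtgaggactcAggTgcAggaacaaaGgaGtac
AT5G54760, chr5:22244732-22245517, plus strand: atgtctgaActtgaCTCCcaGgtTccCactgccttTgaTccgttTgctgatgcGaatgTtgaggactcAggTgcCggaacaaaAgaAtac

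The promoters of 2 eIF1 genes, one called higher in VN and one not called, are shown next, to set beside their levels, as 250 bases before to 50 bases after the RefSeq gene start in TAIR10.1, read in the direction of the gene. Here and in the promoters printed for other members, capitals mark the telo-box AAACCCTA and the site II elements TGGGCC and TGGGCT on either strand, short motifs known from promoters of plant ribosomal protein and translation genes. A match overlapping another, as in TGGGCCCA, was counted for each. AT1G54290 holds 4 site II matches, 3 of TGGGCT and 1 of TGGGCC, and AT5G54760 holds none of the motifs in this window.
eIF1 AT1G54290, chr1:20270091-20270390, minus strand: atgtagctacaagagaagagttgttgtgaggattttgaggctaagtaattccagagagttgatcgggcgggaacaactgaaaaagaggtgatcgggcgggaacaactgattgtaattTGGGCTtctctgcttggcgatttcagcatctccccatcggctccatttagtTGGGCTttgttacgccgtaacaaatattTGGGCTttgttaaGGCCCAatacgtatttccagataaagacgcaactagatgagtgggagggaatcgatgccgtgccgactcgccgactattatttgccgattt
eIF1 AT5G54760, chr5:22243550-22243849, plus strand: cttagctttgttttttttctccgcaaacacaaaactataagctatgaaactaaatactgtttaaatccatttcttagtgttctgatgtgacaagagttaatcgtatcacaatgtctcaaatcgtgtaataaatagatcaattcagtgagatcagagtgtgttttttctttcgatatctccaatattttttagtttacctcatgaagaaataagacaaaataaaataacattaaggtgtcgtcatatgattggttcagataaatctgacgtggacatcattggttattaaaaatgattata

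Longer proteins with a SUI1 domain went opposite to eIF1. AT1G71350 stood at 142, 161 and 138 TPM in SCs and was listed at 0 in all VN libraries, the largest difference of any member (log2 fold change 7.21, SE 0.24, adjusted p = 2.53e-07). No ratio is given against a group at 0, and the fitted value depends on the pseudocount. AT5G11900 stood at 68.0, 66.2 and 51.0 TPM in SCs and at 0.399, 0.0733 and 5.52 TPM in VN, with VN replicate 3 the highest of its group (log2 fold change 4.86, SE 0.63, adjusted p = 1.72e-04). Its coding sequence has 597 bases and that of AT1G71350 1794 bases, against 342 bases or fewer in the eIF1 genes.
SUI1-domain AT1G71350, chr1:26891235-26891534, minus strand: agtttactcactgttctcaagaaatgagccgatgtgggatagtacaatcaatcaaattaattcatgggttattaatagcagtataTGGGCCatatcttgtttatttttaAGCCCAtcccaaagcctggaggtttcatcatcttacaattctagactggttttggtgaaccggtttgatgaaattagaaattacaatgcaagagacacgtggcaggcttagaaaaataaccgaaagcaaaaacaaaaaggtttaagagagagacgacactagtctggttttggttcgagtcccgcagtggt

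In the AT1G71350 promoter, printed because the gene was at 0 in VN, 1 TGGGCC and 1 TGGGCT match were found and no telo-box.

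The 3 subunits of eIF2, which form one complex around the initiator tRNA, were not at similar levels in either cell type. eIF2 beta stood at 51.7, 56.3 and 44.8 TPM in SCs and 0.552, 5.65 and 0.127 TPM in VN (log2 fold change 4.51, SE 0.61, adjusted p = 2.26e-04). eIF2 gamma, the GTP-binding subunit, was the reverse, at 0.804, 0.328 and 0.116 TPM in SCs and 16.2, 28.3 and 19.9 TPM in VN (log2 fold change -3.98, SE 0.34, adjusted p = 1.45e-05). Neither pair of ranges overlapped. Of eIF2 alpha, the subunit that stress kinases phosphorylate, AT5G05470 was at 0 in all libraries except SC replicate 3 (0.112 TPM) and AT2G40290 stood at 0.228, 0 and 0 TPM in SCs and 1.62, 0.0477 and 2.62 TPM in VN. AT2G40290 was not called (adjusted p = 0.0878), though without VN replicate 2 its log2 fold change was -1.52 with an adjusted p of 0.00318.

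Both genes of this core subunit were thus at or under 2.62 TPM in all 6 libraries, and subunits of eIF3 named further on were as low. Whether such values are low levels or failed estimates was not tested. The other eIF2 and eIF2B members were low too. AT1G53880, described as the alpha subunit of eIF2B, stood at 2.56 to 2.81 TPM in SCs and 0 to 0.369 TPM in VN, and AT1G53900 at 0 to 0.448 TPM in SCs and 0 to 1.77 TPM in VN. Their coding sequences are 100% identical over 1158 bases and their transcripts share most 31-base words, so the split of reads between them is uncertain.

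eIF3, the largest initiation factor, was mostly higher in SCs. Of its 16 genes 10 were tested, 7 were higher in SCs, 1 in VN and 2 were not called. The described eIF3 subunit AT1G66070 led the group at 113, 117 and 109.7 TPM in SCs against 0.366, 3.99 and 4.07 TPM in VN (log2 fold change 5.13, SE 0.50, adjusted p = 3.04e-05). The next largest log2 fold change was that of eIF3H1, a subunit known in Arabidopsis for translation of mRNAs with upstream open reading frames, at 51.8, 53.4 and 40.7 TPM in SCs and 3.61, 0.755 and 0.209 TPM in VN (log2 fold change 4.53, SE 0.48, adjusted p = 5.38e-05). Neither gene overlapped between the cell types.

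The core subunits eIF3A and eIF3B1 had SC levels close to that of eIF3H1. eIF3A, the largest subunit, stood at 51.4, 53.1 and 69.6 TPM in SCs and 3.27, 0.182 and 3.49 TPM in VN (log2 fold change 4.37, SE 0.52). eIF3B1 stood at 43.4, 37.1 and 49.9 TPM in SCs and 1.42, 0.160 and 3.66 TPM in VN (log2 fold change 4.23, SE 0.49). eIF3F, needed for male gametogenesis in Arabidopsis, stood at 51.9, 48.2 and 43.6 TPM in SCs and 12.2, 4.81 and 4.17 TPM in VN (log2 fold change 2.73, SE 0.38). The 4 subunits H1, A, B1 and F thus lay between 37.1 and 69.6 TPM in every SC library, eIF3A above eIF3B1 without overlap, and were at most 12.2 TPM in VN. eIF3B1 overlaps the antisense gene AT5G27630 by 394 bases, and since the library method does not mark strand, reads of the 2 genes cannot be told apart there. The coding sequences of eIF3B1 and its paralogue eIF3B2 are 94.6% identical, and 13.7% of the 31-base words of eIF3B1 occur in eIF3B2. Reads may have been split between this pair in error.

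Other eIF3 subunits did not share that level. eIF3C1 stood at 9.33, 8.98 and 5.87 TPM in SCs and 4.59, 5.90 and 12 TPM in VN and was not called (log2 fold change 0.16, SE 0.39, adjusted p = 0.706). Its paralogue eIF3C2 stood at 4.37, 4.43 and 6.29 TPM in SCs and 0.0806, 0 and 0.0124 TPM in VN (log2 fold change 2.53, SE 0.30, adjusted p = 1.05e-04). eIF3C1 therefore took 48.3% to 68.1% of the TPM of the pair in SCs and 98.3% or more in VN. eIF3E, at 1.97 to 4.61 TPM in SCs and 0.0857 to 1.24 TPM in VN, missed the threshold (adjusted p = 0.0133) but passed it after median centring (0.00214), and without VN replicate 1 (0.0054).

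eIF3K was called (log2 fold change 1.68, adjusted p = 0.00707) but lost the call when any single library except VN replicate 3 was left out, with adjusted p from 0.018 to 0.0394. The eIF3D genes AT4G20980 and AT5G44320, eIF3G1 and eIF3G2 were all at or under 0.689 TPM in every library. Those subunits were untested, as were eIF3B2 and AT1G54680, described as subunit I. The second copy of the described eIF3 subunit, AT5G37475, was the exception in direction, at 0.0767, 0.467 and 0.146 TPM in SCs and 5.04, 7.93 and 3.34 TPM in VN (log2 fold change -2.34, SE 0.37, adjusted p = 5.26e-04). The coding sequences of AT1G66070 and AT5G37475 are 81.3% identical, and AT1G66070 took 99.6% to 99.9% of their TPM in SCs against 6.78%, 33.5% and 54.9% in the VN libraries.

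The eIF3H1 promoter is printed because the gene had the largest difference among the eIF3 subunits with a known letter. It holds 1 telo-box, 2 matches to TGGGCC, which lie on both strands of one palindrome, and 1 to TGGGCT.
eIF3H1 AT1G10840, chr1:3610567-3610866, minus strand: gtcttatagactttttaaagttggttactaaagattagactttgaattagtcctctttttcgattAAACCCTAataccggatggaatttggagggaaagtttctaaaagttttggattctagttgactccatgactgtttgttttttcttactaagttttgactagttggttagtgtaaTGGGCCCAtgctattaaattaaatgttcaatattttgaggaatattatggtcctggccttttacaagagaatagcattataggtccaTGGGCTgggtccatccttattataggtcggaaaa

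Of the 9 factors that bring the mRNA, the eIF4 group, 6 were higher in SCs (66.7%, against 29.2% of all genes tested). VN was higher for 2 (22.2%, against 35.6%), and 1 was not called. eIF4G, the scaffold, stood at 50.2, 44.5 and 49.4 TPM in SCs and 1.68, 2.20 and 4.41 TPM in VN (log2 fold change 3.77, SE 0.32, adjusted p = 1.39e-05). eIFiso4E, the plant-specific cap-binding isoform, was the highest of the group at 74.2, 76.0 and 61.1 TPM in SCs and 11.8, 8.24 and 8.67 TPM in VN (log2 fold change 2.77, SE 0.24, adjusted p = 1.65e-05). Both were above all their VN libraries in all their SC libraries.

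The 3 genes of the eIF4E type were all higher in SCs at lower levels. eIF4E1 stood at 6.94, 8.25 and 5.05 TPM in SCs and was listed at 0, 0 and 0.0313 TPM in VN (log2 fold change 2.92, SE 0.31). AT1G29550 stood at 12.8, 11 and 15.5 TPM in SCs and was listed at 0 in all VN libraries (log2 fold change 3.81, SE 0.29). AT1G29590 stood at 12.4, 11.3 and 7.32 TPM in SCs and 1.87, 3.57 and 0.714 TPM in VN (log2 fold change 1.98, SE 0.42, adjusted p = 0.00287). Its call was lost without SC replicate 1 (adjusted p = 0.0223), SC replicate 2 (0.0216), SC replicate 3 (0.0102) or VN replicate 1 (0.0103). AT1G29550 and AT1G29590 are 97.0% identical in coding sequence, so reads may have been split between them in error. Within the cap-binding family eIFiso4E held 68.7% to 71.3% of the TPM in SCs and 69.8% to 92.1% in VN, which overlap (exact permutation test, two-sided, p = 0.3).

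The helicase genes and the copies of its partner did not move together. eIF4A1 stood at 1.10, 1.13 and 1.57 TPM in SCs and 15.1, 15.4 and 16.3 TPM in VN (log2 fold change -2.88, SE 0.27, adjusted p = 2.43e-05). eIF4A-III, the related helicase of the exon junction complex, stood at 27.5, 28.3 and 25.9 TPM in SCs and 15.5, 51.5 and 17.1 TPM in VN and was not called (adjusted p = 0.724), VN replicate 2 being well above the other two. It was above eIF4A1 in every library of both cell types, in VN replicates 1 and 3 only narrowly. eIF4B1 was at most 0.225 TPM in SCs against 6.94, 2.96 and 4.40 TPM in VN (log2 fold change -2.28, SE 0.35, adjusted p = 4.85e-04), and eIF4B2 was the reverse, at 27.2, 18.5 and 22.2 TPM in SCs and 1.16, 1.45 and 3.85 TPM in VN (log2 fold change 2.98, SE 0.37, adjusted p = 1.39e-04). eIF4B1 thus made up 0.192% to 1.21% of the eIF4B TPM in SCs and 53.3% to 85.6% in VN.

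The factors of the late steps, eIF5 and eIF5B, were higher in VN in all 4 tested of 7 genes. Of all genes tested, 35.6% were higher in VN. AT1G77840, an eIF5 gene described as IF2/IF5, stood at 9.80, 9.80 and 12.2 TPM in SCs and 92.9, 106 and 101 TPM in VN, where its mean was the fourth highest (log2 fold change -3.13, SE 0.21, adjusted p = 4.21e-06). The other eIF5 gene, AT1G36730, stood at 7.62, 9.42 and 9.16 TPM in SCs and 25.0, 34.2 and 36.0 TPM in VN (log2 fold change -1.74, SE 0.26, adjusted p = 3.58e-04). With the 10 highest genes removed its log2 fold change was -1.01 with an adjusted p of 0.0141. AT1G36730 held 42.8% to 49% of the eIF5 TPM in SCs and 21.2% to 26.3% in VN.

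The 5 genes counted as eIF5B are described as eIF-2 family proteins, GTPases related to bacterial IF2. AT1G21160 stood at 1.84, 1.72 and 2.1 TPM in SCs and 35.1, 27.2 and 21.5 TPM in VN (log2 fold change -3.30, SE 0.29, adjusted p = 1.54e-05), and it overlaps the antisense gene AT1G21170 by 466 bases. AT1G76810 stood at 0.234, 0.450 and 0.260 TPM in SCs and 10.6, 10.7 and 11 TPM in VN (log2 fold change -3.17, SE 0.28, adjusted p = 1.72e-05). Neither overlapped between the cell types, and the other 3 copies stayed at or under 1.46 TPM. The coding sequence of AT1G76810 is 91.6% identical to that of AT1G76720 and 91.5% to that of AT1G76820. Of its 31-base words, 15.4% occur in transcripts of other genes, so reads may have been split between these copies in error.

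eIF6 keeps the large ribosomal subunit from joining too early and takes part in its assembly. eIF6A was the most abundant of all members in SCs, at 586, 508 and 485 TPM, each above every library of the next member there, and stood at 88.5, 70.5 and 73.2 TPM in VN (log2 fold change 2.75, SE 0.18, adjusted p = 2.84e-06). eIF6B was far lower and went the other way, at 4.81, 3.44 and 2.22 TPM in SCs and 21.9, 15 and 29.2 TPM in VN (log2 fold change -2.35, SE 0.35, adjusted p = 4.07e-04). eIF6A still led the pair in both, with 99.2% to 99.5% of its TPM in SCs and 71.5% to 82.5% in VN. The coding sequences are 74.7% identical. The promoter of eIF6A is shown because the gene was the most abundant member in SCs, and its window holds none of the motifs.
eIF6A AT3G55620, chr3:20633807-20634106, plus strand: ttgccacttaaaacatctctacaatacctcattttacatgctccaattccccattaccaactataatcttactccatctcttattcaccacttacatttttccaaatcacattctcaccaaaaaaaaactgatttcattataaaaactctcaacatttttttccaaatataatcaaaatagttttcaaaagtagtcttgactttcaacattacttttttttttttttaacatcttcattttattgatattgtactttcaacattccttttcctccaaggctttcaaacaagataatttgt

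**Figure D3:**
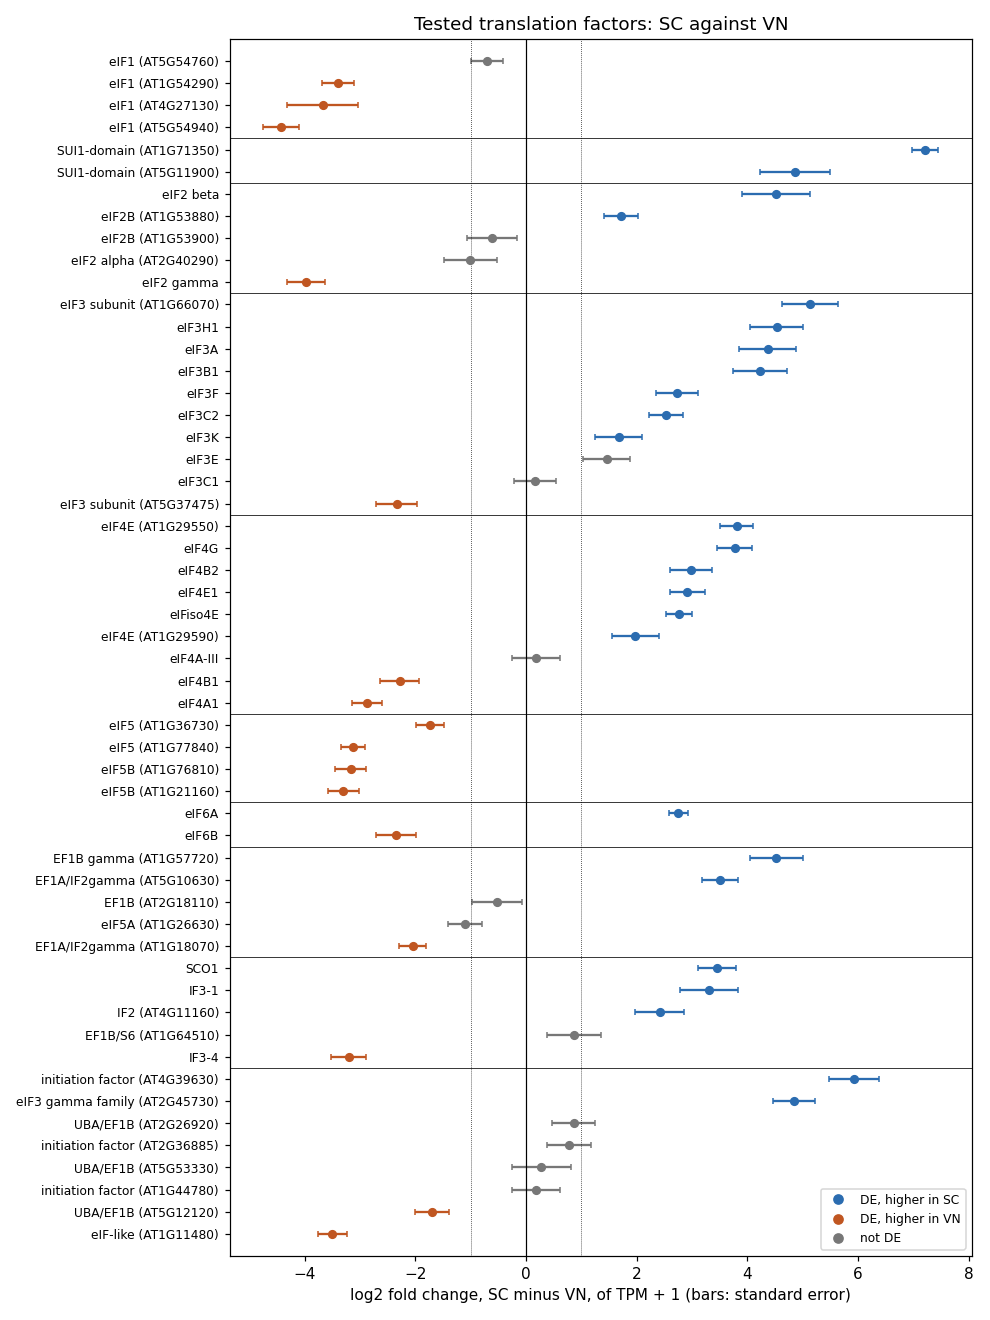
Log2 fold change (SC minus VN, of TPM + 1) of each tested member with its standard error, coloured by call, in the same order as the plot of levels. Values run from -4.43 for eIF1 AT5G54940 to 7.21 for AT1G71350, and 25 members lie above and 16 below the DE thresholds.

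Elongation and release factors were fewer by this choice, since most eEF1A and eEF2 genes carry other descriptions. Of 8 genes 5 were tested. SCs were higher for 2 (40.0%, against 29.2% of all genes tested) and VN for 1 (20.0%, against 35.6%). The EF1B gamma chain AT1G57720, part of the exchange factor of eEF1A, stood at 176, 122 and 132 TPM in SCs and 2.19, 4.76 and 11.9 TPM in VN, with no overlap (log2 fold change 4.53, SE 0.48, adjusted p = 4.99e-05). Its copy AT1G09640 was listed at 0 in every library except VN replicate 1 (1.07 TPM). The EF1B gene AT2G18110 was not called, at 1.02 to 5.78 TPM in SCs and 4.22 to 5.26 TPM in VN.

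The eEF1A-like GTPases went in both directions, and the eIF5A member was not called. AT5G10630 stood at 9.90, 15.7 and 9.79 TPM in SCs and 0, 0.0303 and 0.307 TPM in VN (log2 fold change 3.50, SE 0.32), and AT1G18070, annotated with release factor activity, stood at 9.10, 10.3 and 7.73 TPM in SCs and 46.2, 36.8 and 38.6 TPM in VN (log2 fold change -2.05, SE 0.24). The eIF5A gene AT1G26630, a factor that helps the ribosome through difficult peptides, stood at 63.1, 36.1 and 38.3 TPM in SCs and 131, 92.0 and 74.4 TPM in VN. Its libraries did not overlap, but it missed the threshold (log2 fold change -1.10, SE 0.30, adjusted p = 0.0106). It passed without SC replicate 1 (0.00675) or VN replicate 3 (0.00958), and with the replicate number as a block (0.00362). Across all alternatives its log2 fold change lay between -1.35 and -0.315, with adjusted p as high as 0.345.

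Organelle translation uses factors of bacterial type, made in the nucleus. Of 12 genes placed with plastid or mitochondrial translation 5 were tested. SCs were higher for 3 (60.0%, against 29.2% of all genes tested) and VN for 1 (20.0%, against 35.6%). AT1G64510, RFC3 and AT3G18760 among the 12 are described as EF1B/ribosomal protein S6 family proteins, and whether they act as factors was not tested. SCO1, the elongation factor G of the chloroplast, stood at 11.7, 6.73 and 13.5 TPM in SCs and 0, 0 and 0.0783 TPM in VN (log2 fold change 3.46, SE 0.34, adjusted p = 3.38e-05). It moved in the same direction as the green tissue markers, which were 344 to 520 TPM in SCs and at most 8.49 TPM in VN, and the part of those markers' source in its level was not tested. IF2 AT4G11160 stood at 16.3, 10.06 and 8.45 TPM in SCs and 1.89, 0.260 and 2.27 TPM in VN (adjusted p = 0.00135), and lost the call without SC replicate 1 (0.0123) or SC replicate 2 (0.0101).

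The IF3 genes, which hold ribosomal subunits apart in bacteria and organelles, exchanged places. IF3-1 stood at 27.8, 20.8 and 25.4 TPM in SCs and 1.59, 0.189 and 4.49 TPM in VN (log2 fold change 3.31, SE 0.53, adjusted p = 5.53e-04). IF3-4 stood at 0.228, 0.0355 and 0.222 TPM in SCs and 8.32, 8.38 and 13.0 TPM in VN (log2 fold change -3.21, SE 0.31, adjusted p = 3.23e-05). IF3-1 held 97.8% to 99.8% of the TPM of the family in SCs and 2.21% to 25.7% in VN. IF3-2, the other IF3 member, was listed at 0 in every library except SC replicate 1 (0.392 TPM), and FUG1, a chloroplast IF2, in every library except VN replicate 3 (0.801 TPM).

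Set side by side, 11 families with at least 2 members gave 19 shares, of which 16 did not overlap between the cell types. Shares within a family depend on each other, so the 19 are not separate results. In level, 77.3% of all genes tested did not overlap either. The member with the highest mean share differed between SCs and VN in 5 families, namely eIF1, the SUI1-domain pair, the AT1G66070 and AT5G37475 pair, eIF4B and IF3. In VN replicate 3, however, AT1G66070 led its pair as it did in SCs. Each separated share had the smallest p the design allows (exact permutation test, two-sided, p = 0.1, adjusted p = 0.119 over the 19), so none could pass a threshold of 0.05. In the SUI1-domain and the eIF3 pair the VN sums were at most 5.52 and 11.9 TPM, so the VN shares rest on low values.

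**Figure D4:**
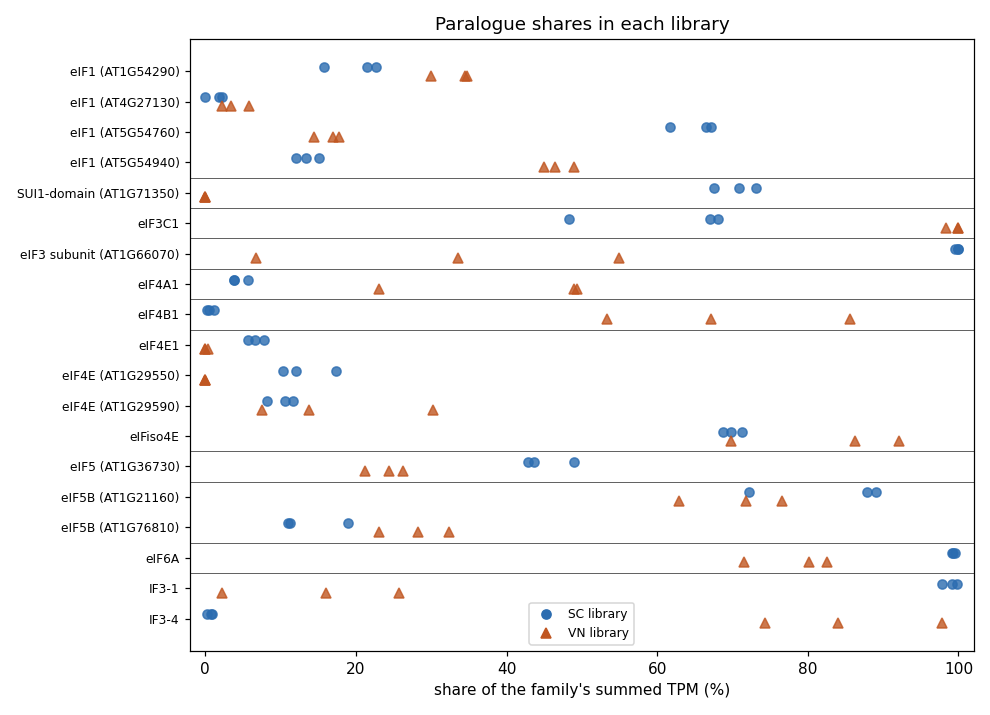
Share (%) of a family's summed TPM held by the named member in each SC library (circles) and each VN library (triangles), with lines between families. IF3-1 holds 97.8% to 99.8% in SCs and 2.21% to 25.7% in VN, while the shares of eIFiso4E, AT1G29590 and AT1G21160 overlap between the cell types.

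Among the 9 genes whose description does not place them in a known factor, 8 were tested and 4 were not called. Of the 8, 2 were higher in SCs (25.0%, against 29.2% of all genes tested) and 2 in VN (25.0%, against 35.6%). AT4G39630, described only as a translation initiation factor, stood at 105, 95.2 and 113 TPM in SCs and 2.66, 0.303 and 0.0965 TPM in VN (log2 fold change 5.92, SE 0.45, adjusted p = 7.84e-06). AT2G45730 is described as an eIF3 gamma family protein, a family whose yeast member was first taken for an eIF3 subunit and is part of a tRNA methyltransferase. It stood at 43.6, 35.2 and 36.9 TPM in SCs and 0.105, 0 and 1.33 TPM in VN (log2 fold change 4.85, SE 0.38, adjusted p = 8.70e-06). Both were among the 8 members with the largest rise, so that list was not made up of known translation factors alone.

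In VN, AT1G11480, an initiation factor-like protein, stood at 50.3, 55.4 and 63.1 TPM against 3.02, 4.35 and 4.98 TPM in SCs (log2 fold change -3.50, SE 0.26, adjusted p = 6.81e-06). AT5G12120 matched the rule through its description as a ubiquitin-associated/translation elongation factor EF1B protein. It stood at 21.4, 21.9 and 37.8 TPM in VN and 6.01 to 8.86 TPM in SCs (log2 fold change -1.70, adjusted p = 0.00123). It lost the call with the 10 highest genes removed (log2 fold change -0.98, adjusted p = 0.0312), and 43.0% of its 31-base words lie in the antisense gene AT5G12110, so its reads are uncertain. AT1G44780, annotated with a histone chaperone domain, was not called at 0.803 to 1.22 TPM in SCs and 0 to 1.86 TPM in VN.

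The members called higher in a cell type were picked by that call, so a low level in the other cell type was partly fixed in advance. Levels are set beside the markers as a description only. Over the 25 members called higher in SCs, the VN level was taken as a share of the gene's own SC mean. Its median was 2.55%, 1.55% and 6.0% in VN replicates 1 to 3. For the 10 sperm markers it was 1.07%, 0.695% and 3.70%. Over the 16 members called higher in VN the median SC level was 6.84%, 7.87% and 7.16% of the VN mean, against 1.78%, 2.11% and 2.07% for the 16 vegetative markers. VN replicate 3 was the highest of its group in both the factors and the sperm markers, and without it 43 members were DE, 26 higher in SCs and 17 in VN.

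Other genes of translation, which the descriptions did not select, were followed as a list of 20 genes. Of these 15 were tested, 4 were higher in SCs, 4 in VN and 7 were not called. Of all genes tested, 29.2% were higher in SCs and 35.6% in VN. Among the eIF5A genes, AT1G69410 stood at 268, 195 and 148 TPM in SCs and 0.924, 3.50 and 8.64 TPM in VN (log2 fold change 5.51, SE 0.55, adjusted p = 3.57e-05), and AT1G13950 at 0.644, 0.0330 and 0.820 TPM in SCs and 20.4, 26.5 and 25.0 TPM in VN (log2 fold change -4.09, SE 0.33, adjusted p = 9.66e-06). The third eIF5A gene, the member AT1G26630, lay towards VN as AT1G13950 did but missed the threshold, and the difference between these genes was not tested. TIF4A-3, an eIF4A-type helicase, stood at 22.7 to 28.7 TPM in SCs and 0.0562 to 1.04 TPM in VN (log2 fold change 4.14), next to eIF4A1, which was higher in VN.

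Of the eEF1A genes AT1G07930 was higher in SCs (log2 fold change 2.81, adjusted p = 0.00268), and AT1G07920 and AT1G07940 were not called (log2 fold change 0.72 and 0.32). The sequences of these eEF1A copies were not compared, so the split of reads between them is uncertain. Of 4 kinases that regulate translation, 2 were higher in VN and 2 were not called. GCN2, the kinase of eIF2 alpha, stood at 2.46 to 4.48 TPM in SCs and 21.0 to 32.3 TPM in VN (log2 fold change -2.66, adjusted p = 7.82e-05), TOR, the growth kinase that promotes initiation, at 0.441 to 0.767 TPM in SCs and 2.89 to 4.31 TPM in VN (log2 fold change -1.49, adjusted p = 0.00231), and S6K1, a kinase downstream of TOR, at 215 to 309 TPM in SCs and 330.4 to 392 TPM in VN without being called (log2 fold change -0.58, adjusted p = 0.0234). S6K2 lay the other way, at 29.8 to 34.8 TPM in SCs and 10.9 to 28.8 TPM in VN, and was not called (log2 fold change 0.76, adjusted p = 0.0796). The release factor gene ERF1-1 was also higher in VN (log2 fold change -1.03, adjusted p = 0.00477), as was AT1G18070 among the members.

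The choice of members did not use sequence. A site II element of either form was present in 45 of 80 member promoters (56.2%), against 21.7% of the promoters of all genes and 28.1% of those of all tested genes. The telo-box was present in 12 members (15%), against 6.22% and 6.02%. By direction, TGGGCT was present in 13 of the 25 members higher in SCs (52.0%) and in 3 of the 16 higher in VN (18.8%), where the tested genes as a whole had it in 18.4%. TGGGCC was present in 36.0% and 31.2%, against 20.9% of all tested genes. The difference between the directions was not tested. These are counts of letters in a window of fixed length, given as a description, and say nothing of binding.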

How the data were processed

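Per the labels and the methods of the study, RNA was sequenced from 3 SC and 3 VN libraries of mature Arabidopsis pollen, reads were trimmed with Trim Galore, and abundance was estimated with Salmon on an assembly based on TAIR10. The authors deposited TPM values per gene and library. These keep no depth, so no counting error is given. The step from transcripts to genes is not given in the sources used here. A further 40313 rows of the table were empty. The members and lists were chosen with earlier results of these data known.

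Genes that reached 1 TPM in 2 or more libraries were fitted with limma 3.58.1 (R 4.3.3) on log2(TPM + 1), with a mean-variance trend and Benjamini-Hochberg adjustment over all 10955 genes, after the script was tested on simulated data. Each adjusted p of a gene is two-sided and from this fit. Named were 8 DE members that rose most and 8 that fell most, the 5 highest in each cell type and the families compared for shares, and other members were named after their values were seen, to complete their groups. Sequences are from RefSeq TAIR10.1, and 27444 promoters were searched. Alternatives were a pseudocount of 0.1, no filter, a minimum of 3 libraries, 3 other scalings, a replicate block, no trend, and each library left out. One promoter sequence is not reported here.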

Additional observations from a re-analysis of the deposited data

How the results depend on the processing

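The count of 41 DE members stayed between 38 and 43 under every alternative tried, with 22 to 27 higher in SCs and 14 to 17 higher in VN. Over all genes, 45.1% of the calls were towards SCs in the main fit and 51.3% with quantile normalization. That share was 53.8% with centring and 53.0% with the 10 highest genes removed. For the members the shares, in the same order, were 61.0%, 62.8%, 61.9% and 65.9%. Leaving out 1 library gave 38 to 43 members, 22 to 26 higher in SCs and 16 to 17 in VN, and 6049 to 7284 genes over the whole table. Without the filter 5845 genes were DE of 22718 tested. The median of all tested genes moved from -0.55 to -0.13 with quantile normalization, -0.03 with centring and 0.07 with the 10 highest genes removed. Replicate numbers did not pair the libraries (correlations of deviations 0.009, -0.035 and -0.019 for same-numbered pairs), and with the replicate number as a block 42 members and 6927 genes were DE, of the members 25 higher in SCs and 17 in VN.

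The difference in the share of TPM held by the factors, 0.0295 percentage points, rose to 0.212 points with the 10 highest genes removed, turned to -0.0154 points without eIF6A, and lay between 0.02 and 0.0374 points with each library left out. Of 752 values of single members, 711 kept direction and call, 17 lost the call, 15 gained it and 9 changed direction. Of the called members 34 kept the call throughout and 7 lost it in some alternative.

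Changes of direction were all in members that were not called. They were eIF1 AT5G54760 (0.14 with quantile normalization, 0.10 with the 10 highest genes removed), EF1B AT2G18110 (0.08 with those removed), and, with each library left out in turn, eIF3C1 (from -0.09 without VN replicate 1 to 0.52), eIF4A-III (from -0.13 without VN replicate 1 to 0.71), AT5G53330 (from -0.20 without VN replicate 1 to 0.75) and AT1G44780 (from -0.23 without VN replicate 2 to 0.53). With 1 TPM added to each member, the SC minus VN difference in share turned to 0.552 points for eIFiso4E and to -25.1 points for AT1G21160. The causes of these changes were not tested, and depth limits cannot be given from TPM.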
